A study of Mus musculus with 8 samples.

Results

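The genes described here are 44 genes that carry fatty acids into the cell and break them down, taken by symbol from a table of read counts for 54532 mouse genes. All 44 were found in the table, each under a single identifier, and all 44 had enough counts to be tested. The counts came from 8 bulk RNA libraries of atria, the upper chambers of the heart, in which polyadenylated RNA was measured and the labels give the cell type as mixed. The KO libraries (4) were from Chd4flox/flox mice that received AAV9:Nppa-Cre on postnatal day 2. The control libraries (4) were from Chd4flox/flox mice that received AAV9:Nppa-EGFP on the same day. Every mouse thus carried the floxed alleles and an AAV9 vector. KO mice alone had Cre and control mice alone had EGFP, and what either protein did by itself cannot be told apart from loss of Chd4. Nppa encodes atrial natriuretic peptide, and its promoter drives the vector in atrial muscle cells, so other cell types of the tissue were not targeted by design. The titles call the controls wild type. The sources used here give neither how old the mice were at collection, nor which exons were floxed, nor how many mice were pooled per library. The labels number the libraries without tying each to its own mouse. P-values therefore cover the spread between libraries, and this spread may in part be technical. Within each group the Y-linked gene Ddx3y was high in some libraries and nearly absent in others. Chd4 encodes a chromatin remodeller of the NuRD complex, and the question addressed here is how the messenger RNAs of fatty acid use differed between KO and control atria.

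Heart muscle burns fatty acids as its main fuel after birth. Lipoprotein lipase frees them from circulating triglyceride, membrane proteins such as CD36 and the fatty acid transport proteins take them up, and small binding proteins carry them through the cytosol. Acyl-CoA synthetases attach coenzyme A, the carnitine shuttle moves the acyl group into mitochondria, and a cycle of dehydrogenases, hydratases and thiolases shortens it while passing electrons to the respiratory chain. Malonyl-CoA restrains the entry step, and the pyruvate dehydrogenase kinases hold back glucose oxidation while fat is used.

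Of the 44 genes, 6 were higher and 12 were lower in KO atria, and 26 did not pass the test (edgeR quasi-likelihood test, adjusted p under 0.05 over 18033 genes). Over all tested genes 27.9% passed, with 14.8% higher and 13.1% lower. The genes that rose were Acsl6, Acsl5, Cpt1a, Cpt1c, Cpt2 and Hadh, which act in fatty acid activation, the carnitine shuttle and a dehydrogenase step of the mitochondrial cycle. Those that fell were Slc27a1, Fabp3, Lpl, Crat, Acadvl, Acad9, Etfa, Acot2, Acacb, Mlycd, Hsd17b4 and Pdk2. The median log2 fold change of the 44 genes was -0.07, beside 0.01 over all tested genes. Scaling by library size alone in place of TMM moved the split of the 44 genes to 9 higher and 11 lower, and that of all tested genes to 3696 higher (20.5%) and 1580 lower (8.76%), beside 2677 higher and 2355 lower with TMM. In 19 of the 44 genes the 4 KO values lay all above (6 genes) or all below (13 genes) the 4 control values. Such separation was found in 29.2% of all tested genes. The 19 were the 18 genes that passed the test and Acaa1a. When KO was compared with controls 1 and 2 only, the 44 genes split into 3 higher and 15 lower, where 9.81% of all tested genes were higher and 8.77% lower. In the 5 libraries that expressed the Y-linked gene Ddx3y (KO 1, 3 and 4, controls 3 and 4), 5 were higher and 5 lower, where 8.4% of all tested genes were higher and 7.95% lower. With all libraries and Ddx3y as a covariate, the same 18 genes passed, 6 higher and 12 lower. Over all 18033 tested genes that fit gave 2444 higher and 2259 lower.

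**Figure D1:**
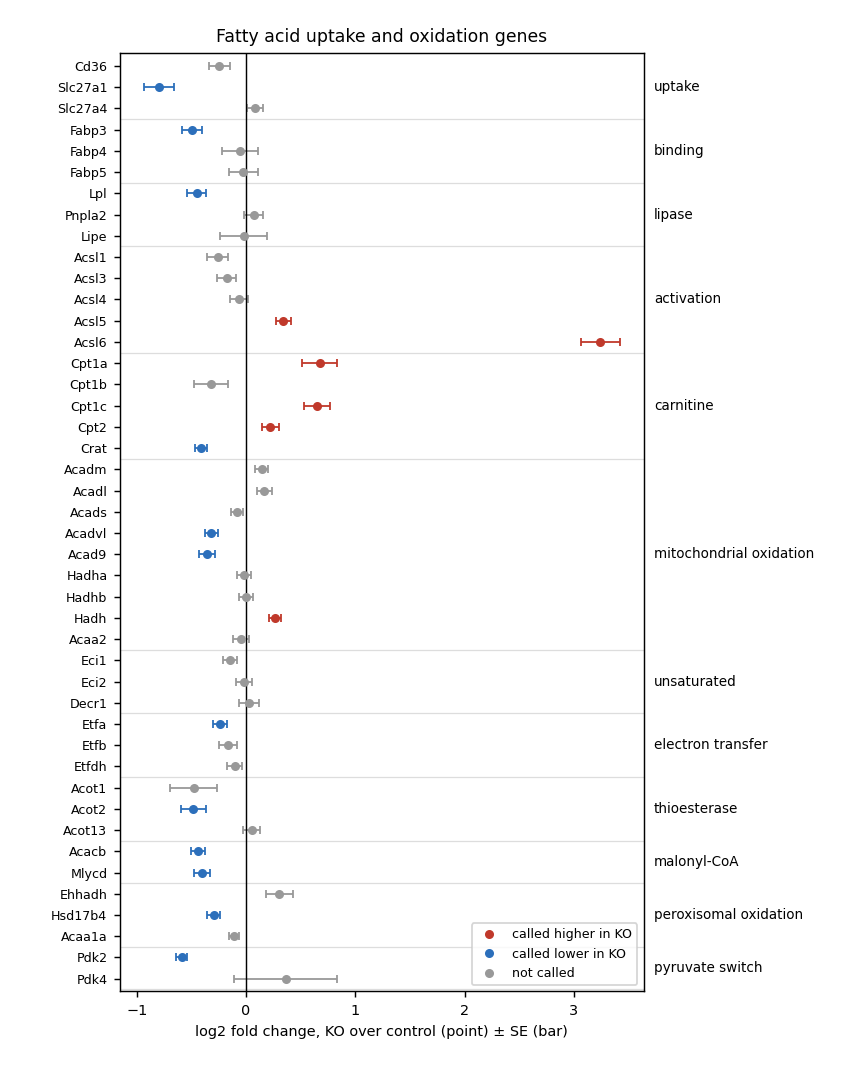
Log2 fold change of KO over control for each of the 44 genes, in the order of the pathway, with the standard error as a bar; red points rose, blue points fell and grey points did not pass the test (edgeR, adjusted p under 0.05). Acsl6 stands at 3.24, while the other 43 genes lie between -0.80 and 0.67.

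Levels are given in CPM, the usual RNA-seq unit of a gene's count relative to its library total, here with TMM scaling of that total, and values of a gene are listed in the order of library numbers 1 to 4. Log2 fold changes are KO over control. Total counts were 34002292 to 38228982 in KO and 39804625 to 40588007 in control libraries. Chd4 itself was measured at 169, 185, 187 and 199.6 CPM in the KO libraries, against 278, 297, 284 and 308 CPM in the controls, so every KO library lay below every control (log2 fold change -0.66 ± 0.064 (SE), adjusted p = 1.86e-05, edgeR). Summed cardiomyocyte markers were lower in KO (44077 to 56436 CPM) than in control libraries (67211 to 75896 CPM), and 7 of 9 such markers fell while Pln rose. Fibroblast markers rose in 5 of 8 (summed 7257 to 9533 CPM in KO, 6265 to 6991 in control), endothelial markers rose in 4 and fell in 1 of 8 (1434 to 1602 in KO, 1294 to 1399 in control), macrophage markers rose in 4 of 8 (409 to 578 in KO, 340.0 to 436 in control) and epicardial markers rose in 4 of 6 (660.5 to 813 in KO, 495 to 649.5 in control). In bulk tissue, fewer cells of a type and less RNA per cell cannot be told apart, and the part of these markers in the results below was not tested. Of 3 ventricular markers tested Myl3 rose (log2 fold change 1.29, adjusted p = 0.0208), while Myl2 and Myh7 had -1.81 and -0.24 and did not pass (adjusted p = 0.318 and 0.235). Myl2 had 3.603 to 65.8 CPM in KO libraries, against 268 CPM in control 1 and 19.5 to 44.9 CPM in the other controls. Irx4, too sparse to be tested, had 0 to 8 counts in KO libraries, against 123 in control 1 and 0 to 16 in the other controls, so that control 1 stood apart in both. Of 8 skeletal muscle markers Myh2 fell. Their sum was 1301, 1462, 820 and 823 CPM in the KO libraries, against 1306 to 1376 CPM in the controls. Of 5 brown adipocyte markers Cox7a1, which heart muscle also expresses, fell, while Ucp1 was at or under 0.433 CPM everywhere. The 8 adipocyte markers summed to 124 CPM in KO 4, and to 1.47 to 4.19 CPM in the other KO libraries and 1.16 to 5.08 CPM in the controls. The smallest adjusted p among the 5 of them tested was 0.124 (Pck1, edgeR). The second principal component (20.3% of the variance) set KO 2 and control 2 apart from the rest. Those libraries and control 1 had Ddx3y under 1 CPM, against over 100 CPM in each of the other 5.

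At the cell surface, Slc27a1 fell and Cd36 and Slc27a4 did not pass the test. Slc27a1 (ENSMUSG00000031808, chr8:71568882-71587302, plus strand), which encodes fatty acid transport protein FATP1, had 90.3, 95.8, 108 and 104 CPM in the KO libraries, against 164, 228, 139.7 and 160.1 CPM in the controls. Control 2 was the highest library, and the groups did not overlap (log2 fold change -0.80 ± 0.14 (SE), adjusted p = 0.00207, edgeR). This was the largest decrease among the 44 genes, to 0.575 of the control level, and it passed in all 20 alternative settings. Its promoter is shown as that of the gene with the largest decrease, from 250 bases before to 50 bases after the most upstream of its 3 listed starts (RefSeq, GRCm38.p6, chr8:71568621-71568920, plus strand), and held none of the motifs searched.
Slc27a1: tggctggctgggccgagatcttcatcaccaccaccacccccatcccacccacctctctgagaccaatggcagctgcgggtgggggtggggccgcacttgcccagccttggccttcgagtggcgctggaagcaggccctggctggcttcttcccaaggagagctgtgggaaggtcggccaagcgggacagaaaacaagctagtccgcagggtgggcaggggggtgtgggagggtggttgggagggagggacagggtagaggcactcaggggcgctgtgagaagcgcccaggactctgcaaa

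Cd36, the scavenger receptor that imports long-chain fatty acids, had 512, 443, 461 and 538 CPM in the KO libraries, against 619, 665, 517 and 512 CPM in the controls. The groups overlapped through KO 1 and KO 4 and controls 3 and 4, and the difference did not pass (log2 fold change -0.24 ± 0.10 (SE), adjusted p = 0.0808, edgeR). On all 8 libraries it did with DESeq2 (adjusted p = 0.0456) and limma-voom (0.0422), as it did in edgeR with controls 1 and 2 alone (0.0134). Slc27a4, which encodes FATP4, had a log2 fold change of 0.08 (adjusted p = 0.449).

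Among the cytosolic fatty acid binding proteins, Fabp3 fell, and Fabp4 and Fabp5 did not pass. Fabp3, the form of heart and skeletal muscle, had 587, 489.8, 486 and 496 CPM in the KO libraries, against 817, 781, 639.8 and 669 CPM in the controls. KO 1 was the highest of the KO libraries and still lay below all controls (log2 fold change -0.50 ± 0.092 (SE), adjusted p = 0.00180, edgeR). In the 5 libraries with Ddx3y alone its adjusted p was 0.0587. Fabp4, the form of adipocytes and capillary endothelium, had 170.0, 121, 141 and 202 CPM in the KO libraries, against 163, 198, 133 and 166 CPM in the controls. Its ranges overlapped throughout, with KO 4 and control 2 the highest (log2 fold change -0.06 ± 0.17 (SE), adjusted p = 0.839, edgeR). KO 4 was also the library with high adipocyte markers, and without it the log2 fold change of Fabp4 was -0.19 (adjusted p = 0.391). Fabp5, a widely expressed form, had a log2 fold change of -0.02 (adjusted p = 0.916). Per kilobase of exon, Fabp3 made up 89.6% ± 1.07 of the 3 Fabp transcripts in KO and 92.3% ± 0.614 in control libraries (SD, n = 4 each). These shares rest on annotated exon lengths of 823 bases for Fabp3, 4489 for Fabp4 and 3567 for Fabp5. The length of Fabp4 covers its whole gene span, so the share of Fabp3 may be overstated. In CPM, mean Fabp3, Fabp4 and Fabp5 were 515, 159 and 132 in KO and 727, 165 and 134 in control libraries. The log2 ratio of Fabp4 to Fabp3 counts was -1.72 ± 0.302 in KO and -2.15 ± 0.176 in control libraries (SD, n = 4 each; difference 0.43, two-sided exact permutation p = 0.0857, adjusted p = 0.114 over 4 ratios). The ratio was highest in KO 4, and without that library the difference was 0.29 (two-sided exact permutation p = 0.171). With any other single library left out it was 0.37 to 0.52.

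Lpl, lipoprotein lipase, was the most abundant of the 44 genes in CPM and fell in KO atria. It had 1383, 1155, 1221 and 1192 CPM in the KO libraries, against 1859, 1812, 1540.1 and 1567 CPM in the controls. Every KO library was below every control (log2 fold change -0.45 ± 0.083 (SE), adjusted p = 0.00174, edgeR), although in the 5 libraries with Ddx3y alone the adjusted p was 0.0751. Control 1 was the highest control for both Fabp3 and Lpl, and without it their log2 fold changes were -0.44 and -0.41 (adjusted p = 0.00683 and 0.00747). The intracellular lipases did not pass. Pnpla2, adipose triglyceride lipase, had a log2 fold change of 0.07 (adjusted p = 0.578). Lipe, hormone-sensitive lipase, had 19.7, 19.9, 24.8 and 33.3 CPM in the KO libraries, against 21.5, 34.4, 21.1 and 22.3 CPM in the controls, where KO 4 and control 2 stood above the other libraries (log2 fold change -0.02 ± 0.22 (SE), adjusted p = 0.954, edgeR). Without KO 4 its log2 fold change was -0.21 (adjusted p = 0.465).

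The largest change among the 44 genes was in fatty acid activation. Acsl6 (ENSMUSG00000020333, chr11:54303798-54364756, plus strand), a long-chain acyl-CoA synthetase best known from brain, had 79.0, 108, 105 and 85.5 CPM in the KO libraries, against 8.82, 7.79, 13.3 and 10.01 CPM in the controls. The lowest KO library was several times the highest control, and the fitted level was 9.47-fold that of control (log2 fold change 3.24 ± 0.18 (SE), adjusted p = 2.63e-06, edgeR). It passed in all 20 alternative settings, with log2 fold changes of 2.95 to 3.49. The promoter of Acsl6 is shown as that of the gene with the largest increase, at the most upstream of 3 listed starts (RefSeq, GRCm38.p6, chr11:54303574-54303873, plus strand). Capitals mark 2 copies of the nuclear receptor motif AGGTCA, both on the opposite strand and so read here as TGACCT, beginning at -189 and -167 with the start base as 0.
Acsl6: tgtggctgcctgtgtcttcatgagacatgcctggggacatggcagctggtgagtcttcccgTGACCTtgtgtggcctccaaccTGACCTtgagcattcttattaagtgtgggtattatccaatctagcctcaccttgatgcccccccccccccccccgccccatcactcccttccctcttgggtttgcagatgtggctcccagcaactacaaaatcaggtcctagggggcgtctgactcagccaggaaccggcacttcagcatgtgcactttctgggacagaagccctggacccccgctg

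Acsl5, which is also found on mitochondria and endoplasmic reticulum, had 37.5, 38.4, 36.8 and 36.4 CPM in the KO libraries, against 29.8, 27.4, 33.2 and 27.3 CPM in the controls. The KO values were tightly grouped and all above the controls (log2 fold change 0.34 ± 0.071 (SE), adjusted p = 0.00394, edgeR). The adjusted p was 0.0527 with controls 3 and 4 alone and 0.0905 in the 5 libraries with Ddx3y alone. Acsl1, the main synthetase of heart muscle, had 387, 327, 344 and 392.3 CPM in the KO libraries, against 458, 506, 370.1 and 404 CPM in the controls. Its groups overlapped, and the difference did not pass (log2 fold change -0.26 ± 0.10 (SE), adjusted p = 0.0689, edgeR), though it did with DESeq2 (adjusted p = 0.0360) and limma-voom (0.0240). Acsl3 and Acsl4, which act at lipid droplets and on arachidonate, had log2 fold changes of -0.18 and -0.07 (adjusted p = 0.147 and 0.602).

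Set beside each other per kilobase of exon, the 5 synthetases differed in makeup between the groups. Shares and sums here depend on the annotated exon length, 10483 bases for Acsl1 and 9914 for Acsl6, against 4357 to 5405 for the others. Acsl1 gave 57.7% ± 3.83 of their summed level in KO and 72.3% ± 3.83 in control libraries, and Acsl6 gave 16.0% ± 2.82 in KO and 1.80% ± 0.577 in control libraries (SD, n = 4 each). Each KO library had a lower Acsl1 share and a higher Acsl6 share than each control. The summed level of the 5 was 59.8 ± 1.49 CPM per kilobase in KO and 57.1 ± 4.91 in control libraries, where the ranges overlapped. Acsl1 was the most abundant of the 5 in all 8 libraries.

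**Figure D2:**
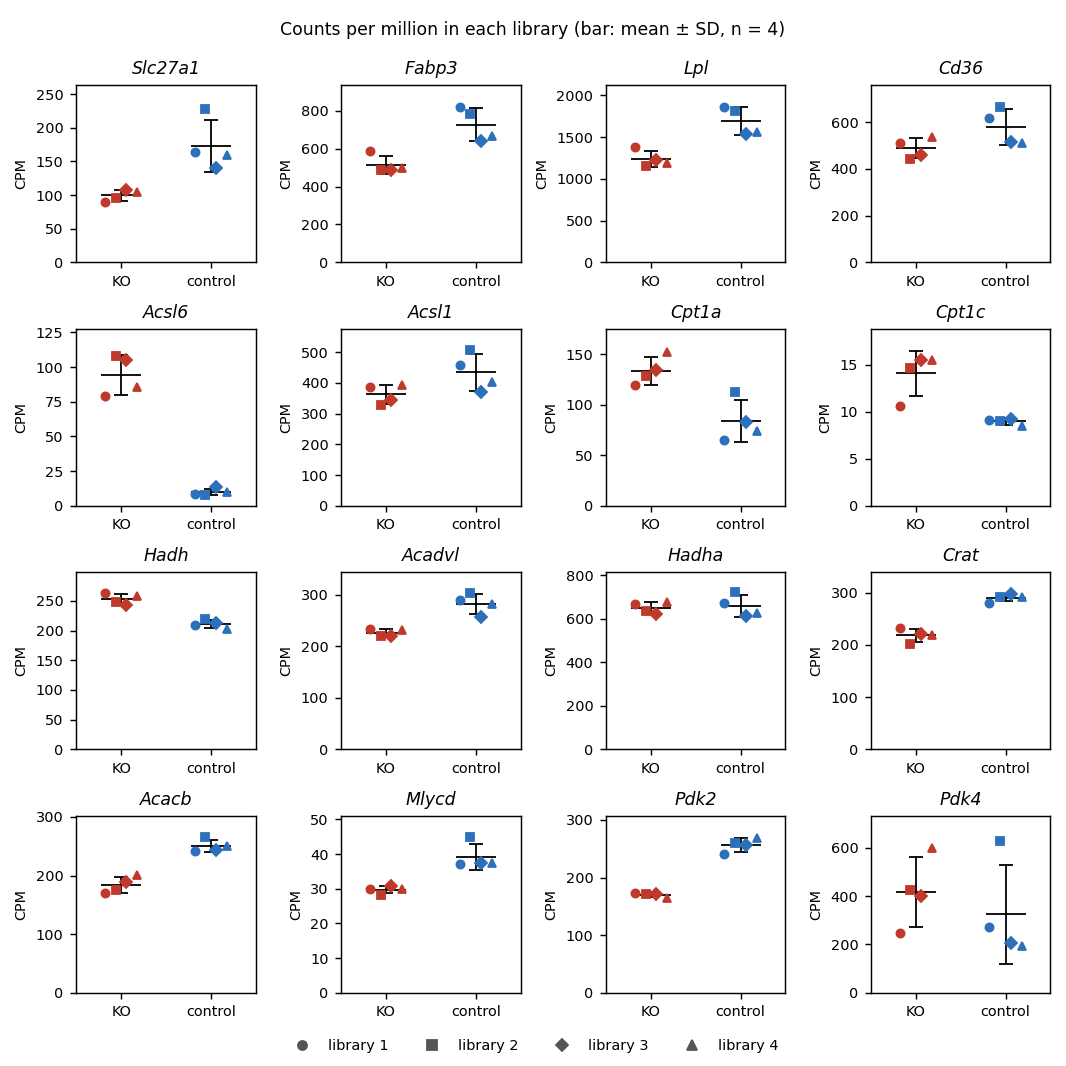
CPM of 16 of the genes in each library, KO on the left and control on the right, with library numbers as symbols and the mean ± SD (n = 4) as bars; each axis starts at 0. Acsl6 lies at 79.0 to 108 CPM in KO and 7.79 to 13.3 CPM in control libraries, while Hadha and Pdk4 overlap between the groups.

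In the carnitine shuttle, 3 genes rose, Crat fell and Cpt1b did not pass. Cpt1a (ENSMUSG00000024900, chr19:3322334-3385733, plus strand) encodes the liver form of carnitine palmitoyltransferase 1, the malonyl-CoA-sensitive entry step that the newborn heart also uses. It had 119, 128, 135 and 152 CPM in the KO libraries, against 65.1, 113, 83.1 and 73.9 CPM in the controls. Control 2 came close to the lowest KO library, but the groups did not overlap (log2 fold change 0.67 ± 0.16 (SE), adjusted p = 0.0129, edgeR). Without control 2 the log2 fold change was 0.85 (adjusted p = 0.000104), with controls 1 and 2 alone it was 0.56 (adjusted p = 0.120), and keeping genes of low count in the fit gave an adjusted p of 0.0639. The promoter of Cpt1a, the gene with the next largest increase, is shown at its single listed start (RefSeq, GRCm38.p6, chr19:3323051-3323350, plus strand). Capitals mark 1 copy of AGGTCA on the opposite strand, beginning at -94 with the start base as 0.
Cpt1a: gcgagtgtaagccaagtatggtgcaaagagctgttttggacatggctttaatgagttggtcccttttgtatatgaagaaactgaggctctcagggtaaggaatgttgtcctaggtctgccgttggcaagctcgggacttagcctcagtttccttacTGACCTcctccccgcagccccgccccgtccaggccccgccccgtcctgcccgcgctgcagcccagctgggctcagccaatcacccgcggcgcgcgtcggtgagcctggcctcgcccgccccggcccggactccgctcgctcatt

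Cpt1b (ENSMUSG00000078937, chr15:89416405-89425863, minus strand) encodes the muscle form of the same step and had 3.95, 5.88, 5.75 and 6.42 CPM in the KO libraries, against 6.76, 8.17, 5.97 and 6.62 CPM in the controls. The groups overlapped, with KO 1 the lowest library (log2 fold change -0.32 ± 0.16 (SE), adjusted p = 0.158, edgeR). Of its 3372 exon bases, 2744 lie within exons of Gm44502, an annotated gene on the same strand that had at most 0.0271 CPM in any library. The sources used here do not say how reads shared by overlapping genes were counted, so the level of Cpt1b may be understated. The log2 ratio of Cpt1a to Cpt1b counts was 4.62 ± 0.204 in KO and 3.58 ± 0.258 in control libraries (SD, n = 4 each). The difference of 1.03 had a two-sided exact permutation p of 0.0286, the smallest that 4 against 4 libraries can give, and 0.114 after adjustment over the 4 ratios. Every KO library had a higher ratio than every control.

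Cpt1c, a form mostly studied in brain, had 10.6, 14.7, 15.5 and 15.5 CPM in the KO libraries, against 9.08, 9.00, 9.26 and 8.50 CPM in the controls. Controls were nearly uniform, and KO 1 was the nearest to them (log2 fold change 0.65 ± 0.12 (SE), adjusted p = 0.00186, edgeR). Cpt2, which releases the acyl group inside mitochondria, had 94.3, 92.9, 94.7 and 105 CPM in the KO libraries, against 86.8, 92.5, 76.0 and 76.0 CPM in the controls. Its groups were separated by less than 1 CPM, between KO 2 and control 2 (log2 fold change 0.22 ± 0.074 (SE), adjusted p = 0.0424, edgeR), and the call was lost in 9 of 20 alternative settings, 7 of which left out a library (adjusted p up to 0.129 there). Crat, carnitine acetyltransferase, which buffers acetyl-CoA, had 233, 202, 220.5 and 218 CPM in the KO libraries, against 280.2, 292, 298 and 292 CPM in the controls. It lay lower in all KO libraries (log2 fold change -0.41 ± 0.058 (SE), adjusted p = 0.000287, edgeR) and passed in all 20 alternatives.

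Within the mitochondrial cycle of 9 genes, Hadh rose, Acadvl and Acad9 fell, and 6 did not pass. The first step is shared by acyl-CoA dehydrogenases of different chain lengths. Acadvl, the very-long-chain enzyme, had 234, 220.1, 219.8 and 232 CPM in the KO libraries, against 289, 303, 257 and 281 CPM in the controls. All KO values were below all controls (log2 fold change -0.32 ± 0.062 (SE), adjusted p = 0.00265, edgeR). Of its 2686 exon bases, 1151 overlap Dvl2 on the opposite strand, and whether the counting used strand is not given in the sources used here. Smaller parts of the exons of Acaa1a, Acsl1, Acsl5, Acsl6, Cpt1c, Crat, Eci2, Etfdh, Fabp3, Hadha and Lipe also overlap genes of the opposite strand. On the same strand, Acad9 shares 559 of its 8192 exon bases with Gm43079, and Acsl3 shares 244 of 4357 with Utp14b. How such shared reads were counted is not given either. Acad9, a dehydrogenase that also serves assembly of respiratory complex I, had 39.6, 33.6, 34.2 and 31.1 CPM in the KO libraries, against 46.4, 43.2, 45.4 and 42.1 CPM in the controls. Here too the groups did not overlap (log2 fold change -0.36 ± 0.075 (SE), adjusted p = 0.00437, edgeR). In the 5 libraries with Ddx3y alone, the adjusted p was 0.0917 for Acadvl and 0.0709 for Acad9. Acadm, the medium-chain enzyme, had 461, 446, 427 and 478 CPM in the KO libraries, against 428, 420.4, 387 and 404 CPM in the controls. Only KO 3 lay within the control range, and the difference did not pass (log2 fold change 0.14 ± 0.060 (SE), adjusted p = 0.0950, edgeR). Acadl, the long-chain enzyme, and Acads, the short-chain enzyme, had log2 fold changes of 0.17 and -0.08 (adjusted p = 0.0735 and 0.267).

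Hadh, the medium- and short-chain hydroxyacyl-CoA dehydrogenase, had 263, 248, 244 and 258 CPM in the KO libraries, against 209, 219, 212 and 202 CPM in the controls. Every KO library exceeded every control (log2 fold change 0.27 ± 0.054 (SE), adjusted p = 0.00308, edgeR). With controls 1 and 2 alone its adjusted p was 0.0579. Hadha, the large subunit of the mitochondrial trifunctional protein, had 668, 635, 623 and 677 CPM in the KO libraries, against 674, 722, 614 and 629 CPM in the controls. The 2 ranges lay over each other (log2 fold change -0.02 ± 0.066 (SE), adjusted p = 0.850, edgeR). Hadhb, the subunit with the thiolase, and Acaa2, a thiolase for medium chains, also had log2 fold changes near 0 (-0.00 and -0.05, adjusted p = 0.982 and 0.663). The log2 ratio of Hadha to Hadhb counts was 0.45 ± 0.0343 in KO and 0.47 ± 0.0739 in control libraries (SD, n = 4 each; difference -0.015, two-sided exact permutation p = 0.8). The 2 genes lie head to head on chromosome 5, with starts 273 bases apart, and their promoter windows share 228 bases. The Hadhb window is shown for this region shared by the genes of both subunits (RefSeq, GRCm38.p6, chr5:30155003-30155302, plus strand), and it held none of the motifs searched.
Hadhb: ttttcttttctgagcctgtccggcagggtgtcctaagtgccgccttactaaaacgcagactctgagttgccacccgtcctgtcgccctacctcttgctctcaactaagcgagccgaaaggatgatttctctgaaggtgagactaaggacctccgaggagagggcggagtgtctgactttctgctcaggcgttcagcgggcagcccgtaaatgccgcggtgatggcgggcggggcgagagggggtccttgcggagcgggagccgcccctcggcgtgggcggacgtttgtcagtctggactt

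Of the 3 enzymes for unsaturated chains none passed in edgeR or DESeq2, and Eci1 alone had an unadjusted p under 0.05 and passed in limma-voom (adjusted p = 0.0314). Eci1 and Eci2, the enoyl-CoA isomerases, and Decr1, the dienoyl-CoA reductase, had log2 fold changes of -0.15, -0.02 and 0.03 (adjusted p = 0.109, 0.882 and 0.870).

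Of the electron transfer genes, which pass electrons from the dehydrogenases to ubiquinone, Etfa fell. Etfa, a subunit of the electron transfer flavoprotein, had 289, 249, 244 and 254 CPM in the KO libraries, against 318, 295, 303 and 304 CPM in the controls. KO 1 came closest to the controls and the groups did not overlap (log2 fold change -0.24 ± 0.064 (SE), adjusted p = 0.0173, edgeR). The call was lost in 8 of 20 alternative settings, including those without KO 2 (adjusted p = 0.0536), KO 3 (0.0614) or control 1 (0.0546). Etfb, its partner, and Etfdh, the ubiquinone oxidoreductase, had log2 fold changes of -0.16 and -0.11 (adjusted p = 0.174 and 0.253). Etfb shares 617 of its 1164 exon bases with Gm45233 on the same strand, and its level may be understated for the same reason as that of Cpt1b.

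The acyl-CoA thioesterases release free fatty acids from coenzyme A. Acot2, the mitochondrial form, had 20.5, 15.6, 18.4 and 23.6 CPM in the KO libraries, against 27.0, 29.8, 27.3 and 24.8 CPM in the controls. All KO values were below the controls (log2 fold change -0.48 ± 0.11 (SE), adjusted p = 0.00826, edgeR), with an adjusted p of 0.0548 with controls 3 and 4 alone and 0.10 in the 5 libraries with Ddx3y alone. Acot1, its cytosolic neighbour on chromosome 12, had a log2 fold change of -0.48 (adjusted p = 0.125). Acot1 and Acot2 are close copies, so reads may be split between them and both values are uncertain. Acot13 had a log2 fold change of 0.05 (adjusted p = 0.675).

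Both genes among the 44 that act on malonyl-CoA, the inhibitor of the CPT1 step, fell. Acacb, the acetyl-CoA carboxylase that makes it at the mitochondrial surface, had 171, 176, 189 and 201 CPM in the KO libraries, against 243, 265, 244 and 249.7 CPM in the controls. The KO libraries were all lower (log2 fold change -0.44 ± 0.064 (SE), adjusted p = 0.000355, edgeR). Mlycd, malonyl-CoA decarboxylase, which removes it, had 29.9, 28.3, 30.7 and 29.9 CPM in the KO libraries, against 37.1, 44.8, 37.4 and 37.5 CPM in the controls. Control 2 stood above the other controls, and the KO libraries were again all lower (log2 fold change -0.40 ± 0.072 (SE), adjusted p = 0.00158, edgeR). Both genes passed in all 20 alternatives. Acaca, the other acetyl-CoA carboxylase and not one of the 44, did not pass (33.5 ± 3.36 CPM in KO and 29.6 ± 0.906 CPM in control libraries, SD, n = 4 each; log2 fold change 0.18, adjusted p = 0.101, edgeR), though it was higher in KO with limma-voom (adjusted p = 0.0204) and without KO 1 (0.00808).

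Peroxisomes shorten very long and branched chains. Hsd17b4, the peroxisomal bifunctional enzyme of branched chains and bile acid precursors, had 73.2, 67.6, 68.0 and 70.01 CPM in the KO libraries, against 86.2, 89.0, 88.4 and 79.0 CPM in the controls. It was lower in all KO libraries (log2 fold change -0.30 ± 0.057 (SE), adjusted p = 0.00232, edgeR), with an adjusted p of 0.0687 in the 5 libraries with Ddx3y alone. Acaa1a, a peroxisomal thiolase, was also lower in every KO library, at 69.9, 72.4, 75.6 and 71.7 CPM, against 78.4, 77.2, 80.0 and 76.9 CPM in the controls. The difference was small and did not pass (log2 fold change -0.11 ± 0.050 (SE), adjusted p = 0.123, edgeR). Ehhadh, the other bifunctional enzyme, had a log2 fold change of 0.30 (adjusted p = 0.0894).

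The pyruvate dehydrogenase kinases gave contrasting data. Pdk2 (ENSMUSG00000038967, chr11:95026258-95041354, minus strand), a kinase that switches off pyruvate dehydrogenase, had 174, 171, 171 and 165 CPM in the KO libraries, against 240.4, 261, 256 and 269 CPM in the controls. Spread within groups was small and no ranges overlapped (log2 fold change -0.59 ± 0.054 (SE), adjusted p = 1.30e-05, edgeR), and it passed in all 20 alternatives. Pdk4, the kinase induced by fasting and fatty acids, had 245, 425, 402 and 598 CPM in the KO libraries, against 272, 628, 206 and 193 CPM in the controls. Its libraries spread over a wide range in both groups, with KO 4 and control 2 the highest (log2 fold change 0.36 ± 0.47 (SE), adjusted p = 0.622, edgeR). Without control 2 its log2 fold change was 0.90 (adjusted p = 0.0929), and with controls 1 and 2 alone it was -0.13 (adjusted p = 0.890). The log2 ratio of Pdk4 to Pdk2 counts was 1.22 ± 0.557 in KO and 0.16 ± 0.788 in control libraries (SD, n = 4 each; difference 1.06, two-sided exact permutation p = 0.0857, adjusted p = 0.114 over 4 ratios). The promoter of Pdk2 is shown as that of the gene with the next largest decrease after Slc27a1, at the most upstream of 2 listed starts (RefSeq, GRCm38.p6, chr11:95041322-95041621, minus strand). It held none of the motifs searched.
Pdk2: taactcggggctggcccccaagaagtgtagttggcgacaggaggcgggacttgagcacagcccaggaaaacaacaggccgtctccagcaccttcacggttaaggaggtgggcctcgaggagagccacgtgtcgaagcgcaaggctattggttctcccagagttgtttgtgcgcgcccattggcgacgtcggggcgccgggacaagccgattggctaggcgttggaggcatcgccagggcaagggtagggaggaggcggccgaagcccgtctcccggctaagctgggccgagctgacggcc

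**Figure D3:**
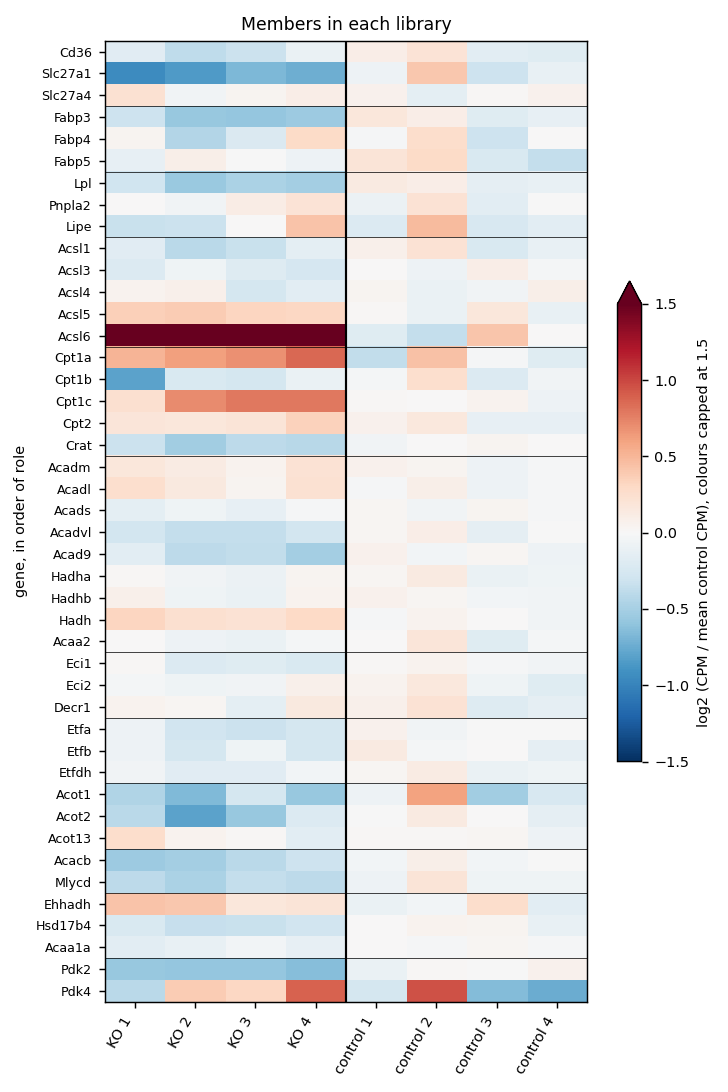
Each row is a gene and each column a library, KO 1 to 4 on the left of the black line and control 1 to 4 on the right; colour gives the log2 of CPM over the mean of the 4 controls, capped at 1.5. Acsl6 is beyond the cap in all 4 KO libraries, and control 2 has the highest control value in 25 of the 44 rows.

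The controls did not vary alike. Control 2 had the highest control value for 25 of the 44 genes, while controls 1, 3 and 4 did so for 7, 9 and 3. This was not counted over all tested genes, so it cannot be called particular to the 44. The genes with the widest spread among controls were Pdk4 (coefficient of variation 63.2%), Acot1 (35.8%), Lipe (25.8%) and Cpt1a (25.0%). In the KO group Pdk4 (34.6%), Lipe (26.0%) and Fabp4 (22.1%) varied most, each highest in KO 4, the library with high adipocyte markers, whose part in these values was not tested. With KO 2 and control 2 both left out, 17 of the 18 genes still passed, Etfa being the exception (adjusted p = 0.0560).

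Levels of different genes were compared per kilobase of annotated exon. This length joins the exons of all annotated transcripts of a gene, from 744 bases for Acot13 to 10483 for Acsl1. Genes whose joined exons are longer than their main transcript are set too low, so the ranks depend on the annotation. Fabp3 was the highest of the 44 genes in both groups, with CPM per kilobase of 625 ± 58.4 in KO and 883 ± 104 in control libraries (SD, n = 4 each). Acadl followed at 304 ± 19.6 in KO and 270.2 ± 12.8 in control libraries, and then Acaa2 at 243 ± 8.16 in KO and 251 ± 26.1 in control libraries, so that these neighbours lay within their SDs of each other in control but not in KO libraries. Etfa came next in both groups. Acsl6 was last of the 44 in controls and rank 33 in KO libraries, at 9.53 ± 1.46 in KO and 1.01 ± 0.241 in control libraries. Acot1, Cpt1b, Cpt1c and Ehhadh stood at the low end in both groups.

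**Figure D4:**
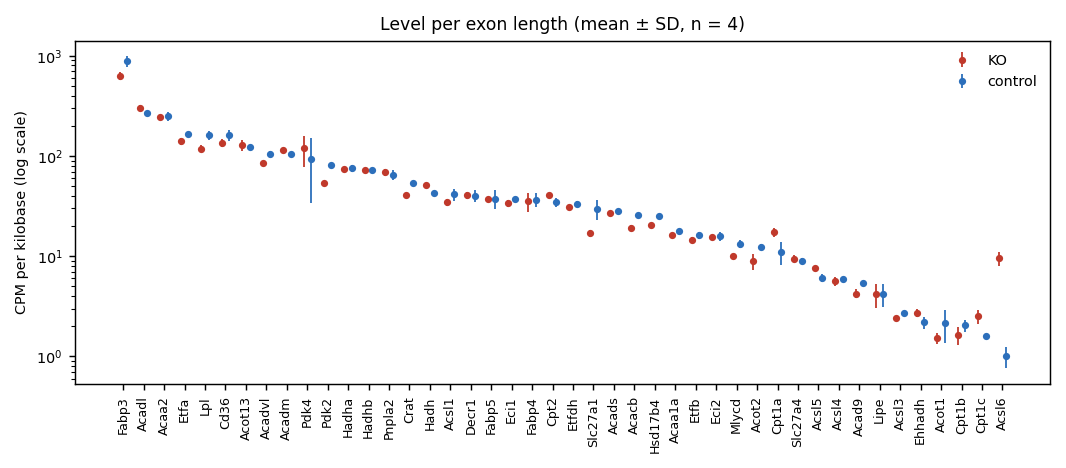
Level of each gene in CPM per kilobase of exon on a log scale, ordered by the control mean, with KO to the left of control at each gene and the SD over 4 libraries as a bar. Exons of all annotated transcripts were joined, so the order depends on the annotation. Fabp3 lies highest in both groups, and Acsl6, lowest in control at 1.01, lies at 9.53 in KO.

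Promoter windows of 300 bases were listed for 34 of the 44 genes, in 41 windows. On either strand, AGGTCA was found in 7 of the 41 windows (17.1%), of Acacb, Acadm, Acadvl, Acsl6, Cd36, Cpt1a and Cpt1c, and in 16.3% of all 32851 windows. A repeat of AGGTCA on the same strand with 1 base between the copies, the arrangement bound by PPAR and RXR, was searched as exact copies only. It was in none of the 41 windows and in 0.04% of all. A match this rare would hardly be met in 41 windows, so its absence does not show whether PPAR sites are present. The T-box motif AGGTGT was in 4 windows (9.76%), of Acot1, Acsl5, Mlycd and Pnpla2, and in 13.7% of all windows. Its longer form AGGTGTGA, which contains the shorter, was in none of the 41 and in 1.28% of all windows. These are matches of letters only.

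Of 93 other genes of the same pathways, 86 were tested, of which 13 rose (15.1%) and 21 fell (24.4%), beside 14.8% higher and 13.1% lower over all tested genes. The separate lists held 4 to 17 tested genes each, so a few genes set each of the counts that follow. In uptake and lipoprotein handling, 2 of 8 tested genes fell. Gpihbp1, the endothelial anchor of lipoprotein lipase, had 18.7, 11.3, 13.8 and 18.2 CPM in the KO libraries, against 23.4, 24.4, 19.9 and 27.3 CPM in the controls, with no overlap (log2 fold change -0.62 ± 0.16 (SE), adjusted p = 0.0155, edgeR). Got2, also described as a fatty acid binding protein of the plasma membrane, had a log2 fold change of -0.33 (adjusted p = 0.00688). Among lipid droplet genes 4 rose and 2 fell of 14. The droplet coat genes Plin5 and Plin3 rose (0.98 and 0.71, adjusted p = 0.00106 and 2.13e-05), as did the lysosomal lipase Lipa (0.39, adjusted p = 0.00130). Plin5 had 28.1, 25.8, 28.3 and 26.5 CPM in the KO libraries, against 16.5, 17.2, 10.3 and 11.1 CPM in the controls. The 4 KO values of Plin5 were close to each other and all above the controls. The perilipins did not move one way: Plin4, another of them, had 138, 107, 137 and 144 CPM in the KO libraries, against 220.4, 297, 161 and 198 CPM in the controls, and it fell without overlap (log2 fold change -0.74 ± 0.18 (SE), adjusted p = 0.0161, edgeR), though not with the replicate number as a block (adjusted p = 0.0757) or with genes of low count kept in (0.0679). Plin2 rose by a small margin (0.26, adjusted p = 0.0474), with overlapping groups, and lost its call in 12 of 20 alternatives.

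Of 17 other mitochondrial genes, 1 rose and 3 fell. Acat1, which acts on acetoacetyl-CoA, fell (-0.52, adjusted p = 3.74e-05), as did the acyl-CoA dehydrogenase Acad12 (-0.58, adjusted p = 0.000871), while the acyl-CoA synthetase Acsf2 rose (0.58, adjusted p = 0.00120). Other peroxisomal genes fell in 7 and rose in 1 of 17. Phyh, which starts the breakdown of phytanic acid, had 173, 151, 159 and 160.3 CPM in the KO libraries, against 262, 261, 297 and 282 CPM in the controls. Its groups were well apart (log2 fold change -0.78 ± 0.064 (SE), adjusted p = 5.69e-06, edgeR). Pecr, a peroxisomal enoyl-CoA reductase, fell (-1.13, adjusted p = 1.75e-05), and Abcd2, a transporter of very long acyl-CoA into peroxisomes, rose (1.32, adjusted p = 0.000206).

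Among 13 regulators, 4 fell and 1 rose. Ppara, the nuclear receptor that drives many of these genes in heart, had 22.5, 20.3, 24.2 and 22.6 CPM in the KO libraries, against 30.9, 33.1, 28.7 and 35.7 CPM in the controls. All KO libraries were lower (log2 fold change -0.52 ± 0.082 (SE), adjusted p = 0.000617, edgeR). Lpin1, a phosphatidate phosphatase and coactivator of PPAR-alpha, fell (-0.90, adjusted p = 1.34e-06), and the corepressor Nrip1 rose (0.27, adjusted p = 0.0142). Of 4 ketone body genes 2 rose. Bdh1, which oxidises hydroxybutyrate, had 22.1, 17.9, 19.97 and 14.9 CPM in the KO libraries, against 2.37, 1.39, 4.31 and 2.83 CPM in the controls, so that the lowest KO value was above the highest control (log2 fold change 2.78 ± 0.29 (SE), adjusted p = 0.000129, edgeR). Oxct1, which activates acetoacetate, also rose (0.49, adjusted p = 0.00107). In the pyruvate and malonyl-CoA list 4 rose and 3 fell of 13, where Mpc2, a subunit of the mitochondrial pyruvate carrier, and Prkaa2, a catalytic subunit of AMP kinase, fell (-0.35 and -0.37, adjusted p = 0.00126 and 0.00194). Fasn, fatty acid synthase, rose (0.40, adjusted p = 0.00232). Of the 19 genes named in these lists for the smallest p, 16 kept their call in all 20 alternatives, the exceptions being Got2, Gpihbp1 and Nrip1.

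**Figure D5:**
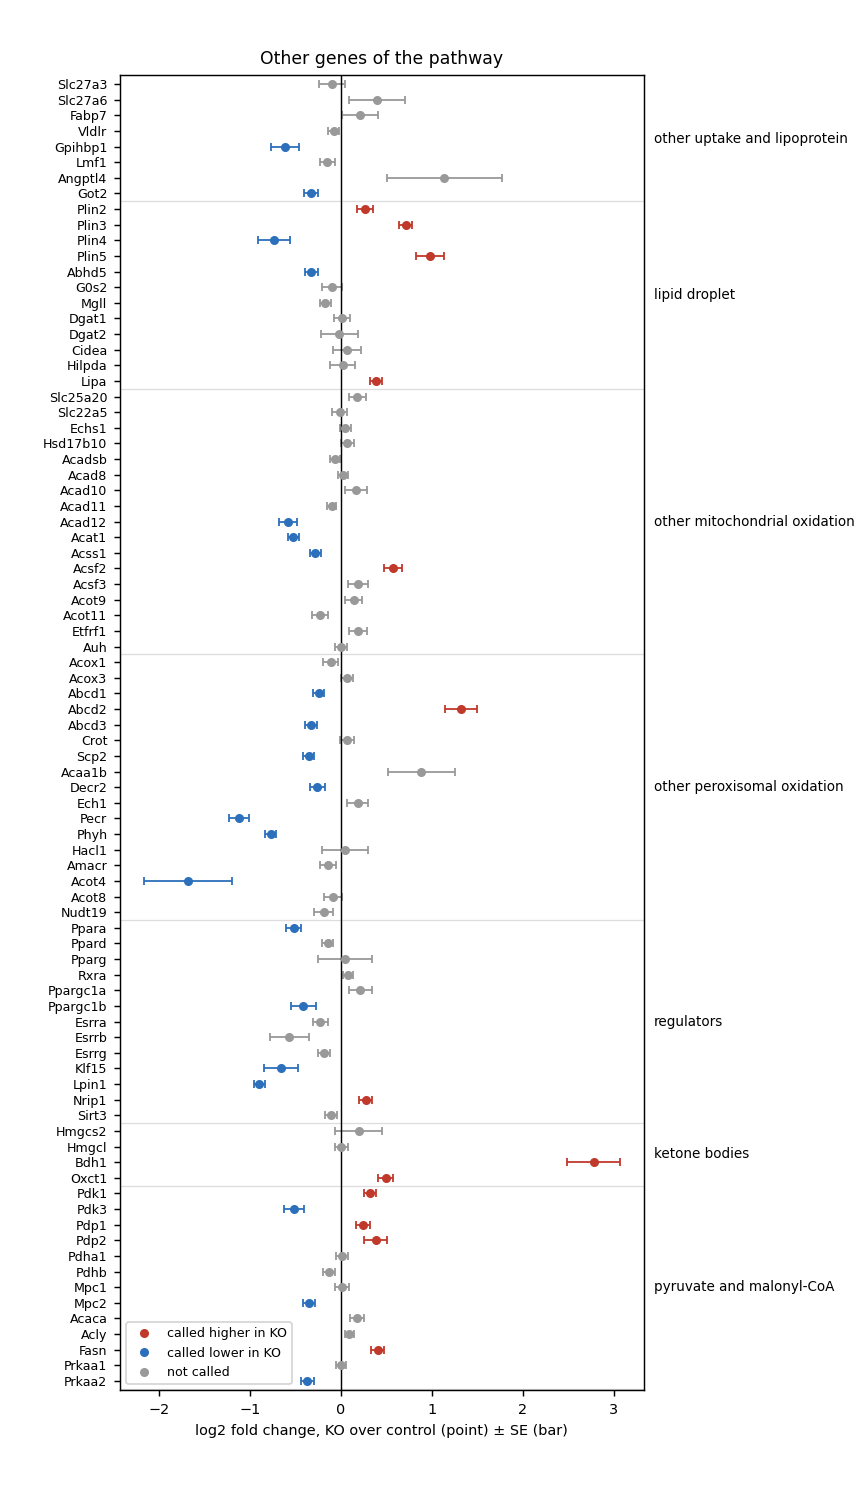
Log2 fold change of KO over control with its standard error for 84 tested genes of the other pathway lists; red rose, blue fell, grey did not pass (edgeR). Plin1 and Cidec, at 2.84 ± 1.67 and 3.53 ± 1.89 and highest in KO 4, and genes with too few counts are left out; Bdh1 lies farthest right at 2.78.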

How the data were processed

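The data deposited by the authors were raw counts of reads per gene, as whole numbers in a column per library (8 in all). Per the submitters' processing notes, STAR, DESeq2 and the build mm10 were used, with no versions named. The program that counted reads, its use of strand and the gene annotation are not given in the sources used here. A column was tied to its sample by the vector in its name and its number. Coordinates and exon lengths came from GENCODE M21 on GRCm38, the assembly of mm10.

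The tests used R 4.3.3 with edgeR 4.0.16, and limma 3.58.1 for an alternative. After filterByExpr (minimum count 10, minimum total count 15) 18033 of 54532 genes stayed in, with TMM scaling. The comparison of KO with control was edgeR's robust quasi-likelihood test without covariates (6 residual degrees of freedom), p-values were adjusted by Benjamini-Hochberg over all tested genes, and calls were made at 0.05. SE is the size of the log2 fold change over the square root of F. Levels are CPM on the TMM scale, and levels per length are CPM per kilobase of union exon length. A count of 3 equalled 0.0744 to 0.0885 CPM. The 4 gene ratios used counts plus 0.5 with two-sided exact permutation tests in scipy 1.17.1. Within groups, chi-square per degree of freedom between library pairs was 12.2 to 31.4, so none was treated as a copy. Column names held the vector, Cre in KO and GFP in control, with a number, and named no batch. A batch that followed the groups could not be seen from them.

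The 44 genes, the other lists and the tests were chosen with earlier results of these data known. Values in every library are given for genes that passed and for Cd36, Lpl, Acsl1, Cpt1a, Cpt1b, Acadm, Hadha, Fabp4 and Pdk4; in each other list up to 3 genes with the smallest p are named. Lipe, Acaa1a, Plin5, Plin2, Plin4, Acaca, Pdk1 and Pdk3, with the ventricular markers, are shown in more detail after their values were seen. Alternatives were other scalings, DESeq2 1.42.0, limma-voom, other filters, a replicate block, each library left out, controls 1 and 2 or 3 and 4 alone, and Ddx3y as a covariate. Leaving out KO 2 with control 2, and using the 5 libraries with Ddx3y alone, were added after seeing the data.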

Additional observations from a re-analysis of the deposited data

Results flagged for a closer look

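Within a group of 4 libraries, 10 of 100 groups examined held a library far from the other 3 (its gap to the nearest, as a share of the group's range, was above Dixon's 95% critical value), and chance alone marks about 1 group in 20. KO 1 accounted for 5 of them. Fabp3 was 586.6 CPM in KO 1 and 486.5 to 496.2 CPM in the other KO libraries. Cpt1c was 10.59 CPM in KO 1 and 14.66 to 15.5 CPM in the others. Got2 was 536.4 CPM in KO 1, beside 450.0 to 459.4 CPM. Oxct1 was 648.4 CPM in KO 1, beside 571.9 to 584.7 CPM, and Nrip1 was 48.76 CPM there, beside 58.73 to 60.5 CPM.

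In KO 4, Cpt2 was 104.9 CPM, against 92.89 to 94.74 CPM in the other KO libraries, and the adipocyte hormone gene Adipoq was 15.8 CPM, against 0.0545 to 0.383 CPM. In control 2, Mlycd was 44.8 CPM, against 37.06 to 37.51 CPM in the other controls. In control 1, the ventricular marker Myl2 was 268.0 CPM, against 19.5 to 44.93 CPM in the other controls, and Irx4 was 3.199 CPM, against 0.0 to 0.4034 CPM.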

How the results depend on the processing

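Of the 18 genes that passed, 12 did so in all 18 alternatives other than the 2 added after seeing the data, and 7 in all 20. Counts of the 44 genes were 5 to 6 higher and 11 to 14 lower over the libraries left out in turn. They were 7 and 14 with DESeq2, and 7 and 15 with limma-voom. Over all tested genes, 2032 to 2687 were higher and 1877 to 2614 lower with libraries left out in turn (18340 to 18457 tested). DESeq2 gave 2879 higher and 2779 lower of 18033, and limma-voom 3235 and 2873. With controls 1 and 2 alone 3 were higher, and with the 5 Ddx3y libraries alone 5 were lower; the cause was not tested. With controls 3 and 4 alone 5 were higher and 10 lower, and without KO 2 and control 2 6 were higher and 11 lower. Over all tested genes these settings gave 1700 higher and 2034 lower of 18763, and 2013 and 1971 of 18082. Same-numbered libraries did not all deviate together (correlations -0.0153, 0.303, -0.0563 and 0.105), so the numbers were not taken as pairs. With the replicate block 5 genes were higher and 12 lower, all 17 among the 18, Cpt2 being lost, and no other call among the 44 genes changed. Over all tested genes that block gave 2474 higher and 2283 lower of 18033.

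The log2 ratio of Cpt1a to Cpt1b differed by 1.09 (exact permutation p = 0.133) with controls 1 and 2, 0.98 (0.133) with controls 3 and 4, 1.03 (0.125) with the replicate block, 1.16 (0.1) without KO 2 and control 2, 1.04 (0.2) in the Ddx3y libraries, and 0.93 to 1.11 (0.0571) with single libraries left out; these designs cannot reach 0.05. The Hadha to Hadhb difference was 0.0227 with controls 3 and 4, 0.0146 without KO 2 and control 2, 0.0160 in the Ddx3y libraries and -0.0341 to 0.0213 over single libraries left out.

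Values that changed sign were near 0 or widely spread, and none passed. For Hadha they were 0.0587 by library size, 0.0425 with controls 3 and 4, 0.00146 with Ddx3y as covariate, 0.0377 without KO 2 and control 2, 0.0764 in the Ddx3y libraries and -0.0544 to 0.0247 over single libraries left out. For Fabp4 they were 0.0191 by library size, 0.0618 with controls 3 and 4, 0.153 without KO 2 and control 2, 0.193 in the Ddx3y libraries and -0.194 to 0.0539 over single libraries left out. Pdk4 was -0.126 with controls 1 and 2. Depth limited none of the 44 genes from being tested. Acsl3, Cpt1b, Acot1 and Ehhadh were under 13 CPM in every library, where low counts are less precise. The largest SE of a log2 fold change among the 44 genes was that of Pdk4 (0.47).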
